A study of Mus musculus with 28 samples.

Results

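The comparison described here set mouse bone marrow cells transformed by EYA1 and HOXA9 and kept in benzarone against the same cells kept in the solvent DMSO. It rests on 6 of the 28 samples of the series, 3 libraries with benzarone and 3 with DMSO, which were picked by the line and treatment in their labels, and it covers every gene of the deposited table (35429, of which 13375 passed the filter on low counts). Both groups came from 1 line, made from c-Kit+ bone marrow progenitors of C57Bl/6 mice that carried EYA1 and HOXA9 on retroviruses, were sorted for GFP and dTomato and were replated in methylcellulose for 4 rounds. The treated cells had 5 µM benzarone for 72 h, and the controls had DMSO for the same time. A second line of the same origin carried HOXA9 without EYA1, was sorted for GFP and had the same treatments (3 benzarone and 3 DMSO libraries). All 12 libraries were poly(A) RNA, and the remaining samples of the series are other cells or assays. There was 1 dose and 1 time, the labels do not say whether a line was clonal, and the replicates are not said to be separate cultures, so p-values measure the spread between these samples, which may be technical.

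EYA1 is a protein of the retinal determination network. EYA proteins have no DNA-binding domain of their own. They act as coactivators of Six4 and related homeodomain factors, DACH proteins work with both, and the EYA C-terminal domain is also a tyrosine phosphatase. Benzarone, a benzofuran drug that lowers urate, inhibits that phosphatase. HOXA9 is a homeodomain factor of early blood progenitors whose forced expression keeps myeloid progenitors dividing in culture and holds back their maturation into neutrophils and monocytes.

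The 12 libraries held 26340517 to 34606046 estimated counts. Both lines held markers of granulocyte-monocyte progenitors. In the EYA1+HOXA9 libraries 5 such genes (Mpo, Elane, Prtn3, Ctsg, Ms4a3) summed to between 5484 and 8302 CPM (counts scaled to the library total and its TMM factor). In the HOXA9 libraries they summed to between 12687 and 16407 CPM. The progenitor marker Cd34 was low in the EYA1+HOXA9 libraries, at 0.393 to 1.35 CPM. The HOXA9 libraries also held neutrophil markers, 6 genes that summed to between 638 and 2878 CPM. B cell markers stayed at or under 0.118 CPM in sum and T cell markers at 0 in the EYA1+HOXA9 line. Of the markers of mast cells and basophils, eosinophils and red cells, Fcer1a, Tpsb2, Epx and Hba-a1 had no counts. Others were present at low levels: the basophil protease gene Mcpt8 averaged 6.08 CPM in DMSO and 4.22 CPM with benzarone, Ms4a2 3.18 and 2.24 CPM, the eosinophil lectin gene Siglecf 1.54 and 0.453 CPM and the erythroid factor gene Klf1 0.990 and 0.878 CPM. The first principal component (50.6% of the variance) parted the lines, and the second (22.2%) parted benzarone from DMSO within the EYA1+HOXA9 line. DMSO replicate 1 of that line stood apart from replicates 2 and 3 for a set of genes that includes Mpo and Trib3. Counts of more than 3 calls that it moves by more than 1.5 times are given without it, as are some smaller ones. Counts of 1 to 3 calls in a gene list were unstable: 19 of 38 such counts moved by more than 1.5 times when some single library was left out.

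The change was broad in the EYA1+HOXA9 line. The genes that rose code for chaperones of the endoplasmic reticulum, lysosomal proteins, interferon-induced proteins, macrophage surface proteins and the milk protein beta-casein. Those that fell included the granule enzymes Mpo and Elane, the transcription factors Myc, Six4 and Cebpe, glycolytic enzymes, and a set of genes such as Nebl and Zfyve9 that were at or near 0 in the HOXA9 line. In edgeR's quasi-likelihood test 3933 of 13375 genes passed at an adjusted p under 0.05 (29.4%), here named called, with 2278 higher (17.0%) and 1655 lower (12.4%) with benzarone. Each count of calls in a gene list below is to be read beside these shares. Called genes that differed by more than 2-fold numbered 981 higher and 665 lower. The median log2 difference was 0.86 among genes called higher and -0.82 among those called lower, against 0.011 over all tested genes. Without DMSO replicate 3 the count was 2353, of which 1459 were higher and 894 lower. The lower calls numbered 1061 without benzarone replicate 2 and 1090 without benzarone replicate 1. Scaling by library totals alone turned the balance: the median of all genes moved to -0.14, and 38.1% of 4318 called genes were higher where TMM scaling gave 57.9% of 3933. A difference smaller than that shift in either direction therefore depends on the scaling, and the values below are by TMM.

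In the HOXA9 line, which had no Eya1 counts in DMSO, the same treatment gave 0 called genes (0% of 13375) in edgeR. The smallest adjusted p was 0.146, and 232 genes had an unadjusted p under 0.05. DESeq2 called 14. With replicate number as a block, which these libraries' numbers warrant, 11 genes were called, all higher. These were chosen for naming after their values were seen, and include the ferroxidase gene Cp (log2 2.49) and the aldehyde dehydrogenase gene Aldh1a3 (2.06). A test of the difference between the lines called 1009 genes (7.54% of 13375), 630 with a more positive and 379 with a more negative change in the EYA1+HOXA9 line, and 1687 with the replicate block. DESeq2 called 1715. Of the 1009, 1003 were also called within the EYA1+HOXA9 line, which is 99.4% of them and 25.5% of the 3933. The count depended on single libraries: it was 408 without DMSO replicate 3 of the EYA1+HOXA9 line, 541 without its benzarone replicate 2, 570 without its benzarone replicate 1 and 499, 588, 667 and 656 without HOXA9 DMSO replicates 1 and 2 and HOXA9 benzarone replicates 2 and 3. Most genes called in the EYA1+HOXA9 line leaned the same way in the HOXA9 line but by little. Of those called higher 73.1% had a log2 difference above 0 there (median 0.074), and of those called lower 65.7% had one below 0 (median -0.049). Over all tested genes the median in the HOXA9 line was -0.0013.

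**Figure D1:**
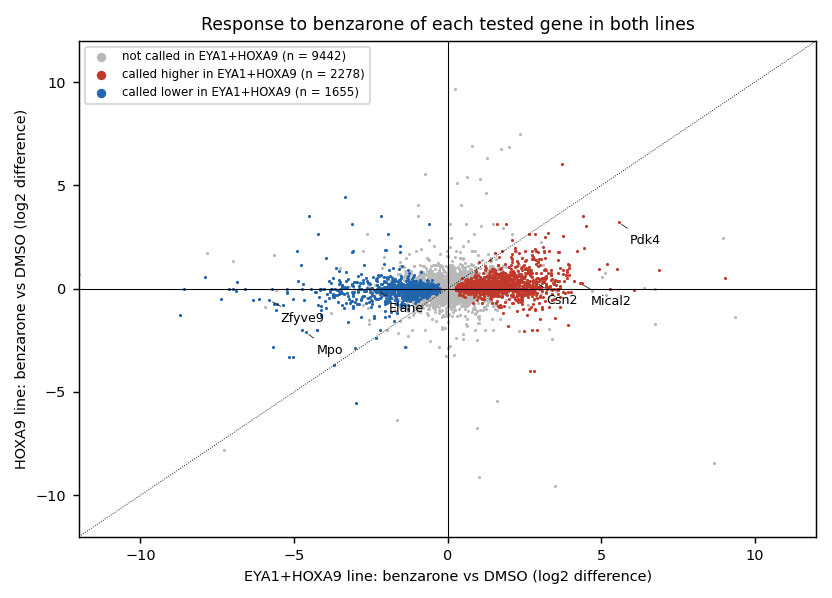
Each point is 1 of 13375 tested genes, with the log2 difference of benzarone from DMSO in the EYA1+HOXA9 line on the x axis and in the HOXA9 line on the y axis. Red and blue points are the 2278 genes called higher and the 1655 called lower in the EYA1+HOXA9 line, grey points the others, and the dotted line marks equal change. Of the 3933 called genes 3797 lie within 1 log2 unit of 0 on the y axis, where no gene was called, and those further out include Mpo.

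Eya1, which codes for the intended target of the drug, fell. It stood at 201, 234 and 276 CPM in the DMSO libraries and 171, 159.8 and 134 CPM with benzarone. The benzarone values all lay below the DMSO values (log2 difference -0.61 ± 0.13, adjusted p = 0.00713, SE here and below). In the HOXA9 line Eya1 had 0 counts over the DMSO libraries and 3 over the benzarone libraries. Reads from the mouse gene and from a retroviral EYA1 cannot be told apart in these counts, and the same holds for Hoxa9.

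Other genes of the retinal determination network moved little or fell. Of 13 listed genes, Eya1 among them, 7 passed the count filter. Of these 3 were called lower (Eya1, Six4 and Dach1) and none higher, with a median of -0.57. By library totals alone, or with DESeq2, 5 were lower, and 1 was higher without DMSO replicate 1. Six4, a homeodomain partner of EYA, read 38.7, 31.4 and 36.6 CPM in the DMSO libraries and 15.6, 11.96 and 10.1 CPM with benzarone. No benzarone library reached the lowest DMSO library (log2 difference -1.50 ± 0.25, adjusted p = 0.00116). Dach1, the corepressor of the network, fell as well, from 56.7, 76.1 and 84.6 CPM to 46.2, 39.9 and 34.2 CPM (log2 difference -0.85 ± 0.20, adjusted p = 0.00809). Eya3, the other EYA gene with more than stray counts, went from 69.1, 65.04 and 67.9 to 58.5, 49.8 and 51.5 CPM and did not pass (log2 difference -0.34 ± 0.12, adjusted p = 0.0596), though it did with DESeq2 (adjusted p = 0.043) and with the 6 libraries of the line alone (adjusted p = 0.0322). Eya2 and Eya4 stayed under 0.18 CPM in every library.

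Hoxa9 rose. It stood at 314, 506 and 326 CPM in the DMSO libraries and 1646, 1321 and 1237 CPM with benzarone, a 3.67-fold increase with no overlap (log2 difference 1.87 ± 0.19, adjusted p = 9.58e-05). In the HOXA9 line its libraries read 240.5, 187 and 180.3 CPM in DMSO and 221, 215 and 197 CPM with benzarone, so the change differed between the lines (difference of the log2 changes 1.81 ± 0.27, adjusted p = 0.0045). Hoxa10 had no counts in any of the 12 libraries and Meis1 at most 1 in a library, so the usual HOXA9 partner MEIS1 was not detectable at this depth. Pbx3, another HOX cofactor, rose from 6.28, 8.84 and 7.30 to 15.3, 14.01 and 13.95 CPM (log2 difference 0.95 ± 0.16, adjusted p = 0.00102). Of 18 listed HOXA, MEIS and PBX genes 7 passed the filter and 3 were called higher, none lower.

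Genes of stem cells and early progenitors went both ways, with 4 of 19 tested members higher and 6 lower (median -0.026). Among all tested genes 17.0% were higher and 12.4% lower. Lower calls numbered 3 when DMSO replicate 2, DMSO replicate 3 or benzarone replicate 2 was left out, and the median turned to 0.031 without DMSO replicate 2. Myb, which progenitors need for self-renewal, fell from 601, 613 and 647 to 358, 412 and 441 CPM (log2 difference -0.62 ± 0.11, adjusted p = 0.00128). Kit, the stem cell factor receptor, read 35.9, 59.5 and 65.4 CPM in the DMSO libraries and 30.1, 27.3 and 39.99 CPM with benzarone (log2 difference -0.72 ± 0.20, adjusted p = 0.0186). The highest benzarone value of Kit lay above the lowest DMSO value, and its call was lost without DMSO replicate 2 or 3 or benzarone replicate 1 or 2 (adjusted p up to 0.0953). At low levels, Hlf, a stem cell transcription factor, fell from 1.51, 1.45 and 2.10 to 0.120, 0.220 and 0 CPM (log2 difference -3.81 ± 0.54, adjusted p = 0.000426), and Igf2bp2, an mRNA-binding protein, fell from 1.58, 1.30 and 1.32 to 0.0598, 0 and 0.179 CPM (log2 difference -4.12 ± 0.65, adjusted p = 0.000765).

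Genes of the neutrophil lineage changed in both directions, and among those that fell were Mpo, Elane, Cebpe and Cxcr2. Azurophil granules form at the promyelocyte stage and carry myeloperoxidase and serine proteases, and C/EBP-epsilon then turns on the secondary granule genes. Mpo, the peroxidase that makes hypochlorous acid, stood at 265, 1193 and 1432 CPM in the DMSO libraries and 27.02, 32.1 and 58.9 CPM with benzarone. DMSO replicate 1 was far below the other DMSO libraries, and all benzarone libraries were lower still (log2 difference -4.61 ± 0.53, adjusted p = 0.000153, and -5.06 without that library). Mpo in the HOXA9 line read 1017, 1215 and 1094 CPM in DMSO and 208, 300.04 and 262 CPM with benzarone, groups that did not overlap, with a log2 difference of -2.11 that was not called. Elane, neutrophil elastase, had little spread within groups: 2455, 2049 and 2418 CPM in the DMSO libraries and 501, 428 and 491 CPM with benzarone, 4.88-fold lower (log2 difference -2.29 ± 0.13, adjusted p = 2.4e-06). Its HOXA9 line values overlapped, at 2933, 3415 and 3457 CPM in DMSO and 3224, 2991 and 3148 CPM with benzarone. Serpinb1a, an inhibitor of these proteases, fell from 605, 559 and 615 to 321, 331 and 356 CPM (log2 difference -0.82 ± 0.11, adjusted p = 0.000373).

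The primary granule genes did not move as 1 block. Of 13 tested members 5 were lower and 2 higher, and the median was 0.12. The median turned to -0.20 without DMSO replicate 2, -0.037 without benzarone replicate 3 and -0.031 by library totals alone, and 1 was higher without DMSO replicate 2 or 3 or benzarone replicate 2. Ctsg, cathepsin G, rose from 2651, 2826 and 2377 to 3275, 4164 and 4847 CPM (log2 difference 0.65 ± 0.15, adjusted p = 0.00687). Prtn3, proteinase 3, read 1724, 1339.8 and 1321 CPM in the DMSO libraries and 1005, 1192 and 1213 CPM with benzarone and did not pass (log2 difference -0.36 ± 0.14, adjusted p = 0.0747), though DESeq2 called it lower (adjusted p = 0.0187). Ms4a3, a marker of granulocyte-monocyte progenitors, showed overlapping groups at 963, 775 and 754 CPM in the DMSO libraries and 676, 1058 and 1077 CPM with benzarone.

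Among regulators of granulocyte growth 2 of 10 genes were higher and 4 lower, or 2 lower without benzarone replicate 2. The shares of all tested genes were 17.0% higher and 12.4% lower. Cebpe went from 40.9, 28.4 and 33.6 to 6.64, 3.61 and 3.51 CPM, 7.45-fold lower (log2 difference -2.90 ± 0.62, adjusted p = 0.00431), while the HOXA9 line spanned 3.25 to 19.4 CPM over both treatments. Il3ra, the alpha chain of the interleukin 3 receptor, rose from 13.5, 29.5 and 20.5 to 64.5, 64.4 and 60.8 CPM (log2 difference 1.58 ± 0.21, adjusted p = 0.000344). Runx1, a core blood transcription factor, rose from 106, 108 and 99.8 to 212, 189 and 139 CPM (log2 difference 0.79 ± 0.15, adjusted p = 0.00235). Secondary granule and late neutrophil genes were lower for 6 and higher for 3 of 21 tested (median -0.37). The median was -1.05 without benzarone replicate 1 and -0.075 without benzarone replicate 3, 1 gene was higher without DMSO replicate 3, and 9 were lower with the 6 libraries of the line alone. Those with the smallest p were Wfdc21, an antimicrobial protein of neutrophils, from 13.4, 12.9 and 15.7 to 3.38, 3.11 and 4.36 CPM (log2 difference -1.95 ± 0.19, adjusted p = 7.37e-05), Padi4, which citrullinates histones (-1.90), and Cxcr2, the chemokine receptor of mature neutrophils (-2.07). The secondary granule proteins themselves were scarce in both groups, with Ltf under 5.7 and Camp under 0.9 CPM. The 6 neutrophil markers together ran from 170 to 264 CPM in DMSO and from 49.4 to 160 CPM with benzarone.

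**Figure D2:**
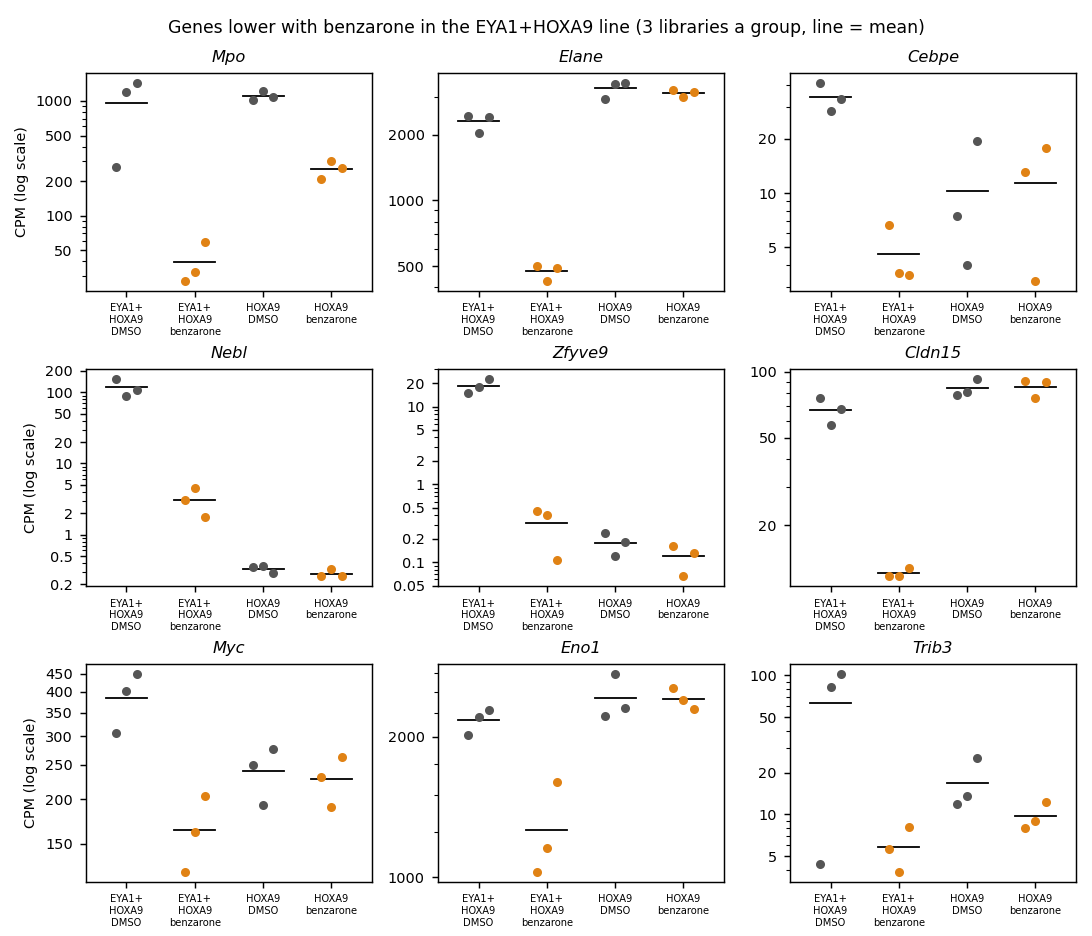
Each panel gives the CPM of 1 gene on a log axis in the 3 libraries of each of 4 groups (points), with the group mean as a line, for genes lower with benzarone in the EYA1+HOXA9 line. For Elane and Cldn15 the HOXA9 groups overlap, Nebl and Zfyve9 are near the bottom of the scale in the HOXA9 line, and DMSO replicate 1 (the leftmost point) is low for Mpo and Trib3.

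Among monocyte and macrophage genes more rose than fell. Of 25 tested 12 were called higher (17.0% of all tested genes were), 2 lower and 11 not called, with a median of 1.04 against 0.47 in the HOXA9 line. Gpnmb, a lysosomal glycoprotein of macrophages, stood at 253, 311 and 173 CPM in the DMSO libraries and 2014, 1313 and 861 CPM with benzarone (log2 difference 2.51 ± 0.32, adjusted p = 0.000247). Ccr2, the chemokine receptor that marks inflammatory monocytes, read 176, 210.4 and 138 CPM in the DMSO libraries and 1223, 716 and 524 CPM with benzarone (log2 difference 2.23 ± 0.28, adjusted p = 0.000247). Adgre1, which codes for the macrophage antigen F4/80, rose from 25.8, 19.3 and 12.3 to 145, 112 and 48.01 CPM (log2 difference 2.41 ± 0.35, adjusted p = 0.000525). In all 3 genes benzarone replicate 3 was the lowest treated library and still lay above every DMSO library. Csf1r, the receptor for the macrophage growth factor, rose from 5.11, 5.79 and 4.66 to 28.8, 16.7 and 6.87 CPM (log2 difference 1.75 ± 0.43, adjusted p = 0.00965), a call that was lost without benzarone replicate 1 (adjusted p = 0.0593). The defining set of 6 monocyte and macrophage markers summed to between 18.6 and 32.9 CPM in DMSO and between 57.7 and 188 CPM with benzarone, and Adgre1 and Csf1r made up most of that sum. Other members went the other way or were near 0. Ly86 fell from a mean of 0.984 to 0.269 CPM (log2 difference -1.85 ± 0.59, adjusted p = 0.0335, a gene named after its values were seen), Cx3cr1 had 16 counts over the DMSO and 2 over the benzarone libraries, and C1qa stayed under 0.3 CPM. In bulk RNA more cells of a type and more RNA per cell cannot be told apart, and the part of a change in cell makeup was not tested.

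Some genes of antigen-presenting cells and of other lineages changed too. The dendritic cell and MHC class II list had 4 of 8 tested members higher and none lower, or 2 higher without DMSO replicate 2 or 3 or benzarone replicate 1. H2-Ab1, a chain of MHC class II, rose from 9.31, 6.74 and 4.49 to 33.8, 21.3 and 13.5 CPM (log2 difference 1.74 ± 0.37, adjusted p = 0.0041), and Flt3, the receptor of dendritic progenitors, from 0.706, 1.54 and 0.439 to 3.89, 4.43 and 4.08 CPM (log2 difference 2.19 ± 0.50, adjusted p = 0.00611). Thy1, a surface protein best known from T cells, rose from 55.8, 114 and 53.7 to 363, 477 and 385 CPM (log2 difference 2.45 ± 0.28, adjusted p = 0.000153), while Lck, a kinase of T cell receptor signalling, fell from 12.5, 18.03 and 21.3 to 6.46, 7.76 and 9.30 CPM (log2 difference -1.14 ± 0.20, adjusted p = 0.00163). Cd3e was at 0 in all libraries, so these counts came without the defining T cell gene. Ighm, the heavy chain of IgM, rose from 11.5, 15.99 and 4.63 to 168, 94.1 and 66.1 CPM (log2 difference 3.35 ± 0.40, adjusted p = 0.000188), and the HOXA9 line already held 184, 203 and 173 CPM of it in DMSO. Cyp11a1, a steroid-making enzyme that mast cells and basophils also express, rose from 389.6, 337 and 239 to 733, 709 and 716 CPM (log2 difference 1.16 ± 0.18, adjusted p = 0.000638), while the mast cell and basophil markers Cpa3, Fcer1a and Tpsb2 were at 0 in the line, and Ms4a2 (adjusted p = 0.132) and Mcpt8 (adjusted p = 0.235) were not called and had lower means with benzarone, as given above.

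The 10 largest falls among genes at 10 CPM or more whose groups did not overlap were Mpo and 9 genes that averaged at most 2.21 CPM in HOXA9 cells in DMSO. Zfyve9, an adaptor of TGF-beta receptors, read 15.1, 17.8 and 22.8 CPM in the DMSO libraries and 0.449, 0.408 and 0.107 CPM with benzarone (log2 difference -5.81 ± 0.39, adjusted p = 6.67e-06), and the HOXA9 libraries held between 0.0657 and 0.234 CPM. Nebl, a nebulin relative of actin filaments, read 156, 87.7 and 108 CPM in the DMSO libraries and 3.11, 4.49 and 1.75 CPM with benzarone (log2 difference -5.22 ± 0.31, adjusted p = 3e-06), against 0.352, 0.358 and 0.287 CPM in HOXA9 cells in DMSO. After benzarone Zfyve9 was near the level of the HOXA9 line, and Nebl was still above it. Myo18b, an unconventional myosin, fell from 24.8, 32.3 and 42.5 to 0.868, 0.659 and 0.322 CPM (log2 difference -5.72 ± 0.37, adjusted p = 7.7e-05) and Stra6, the vitamin A transporter of the cell surface, from 63.9, 37.8 and 49.1 to 3.20, 2.32 and 1.36 CPM (log2 difference -4.44 ± 0.34, adjusted p = 0.000126). Neither had a count in HOXA9 cells in DMSO. Slc32a1, the vesicular transporter of GABA, Clstn3, a synaptic adhesion protein, Sobp, Kcnq5, a potassium channel, and Ndrg2 fell by log2 -4.15, -4.12, -4.51, -4.33 and -3.96. Several of these are best known from muscle or nerve, and each stood above 10 CPM in every DMSO library of the EYA1+HOXA9 line.

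The largest rises began from low levels and varied more between the treated libraries. Pdk4, the kinase that shuts off pyruvate dehydrogenase, stood at 3.66, 4.61 and 0.135 CPM in the DMSO libraries and 199, 180.2 and 21.2 CPM with benzarone, 47.2-fold higher (log2 difference 5.56 ± 0.91, adjusted p = 0.000962). Benzarone replicate 3 was far below the other treated libraries and still above DMSO. Vdr, the vitamin D receptor, read 11.2, 51.3 and 4.36 CPM in the DMSO libraries and 436, 318 and 242 CPM with benzarone (log2 difference 3.89 ± 0.68, adjusted p = 0.0014), with DMSO replicate 2 the highest of the controls. Mical2, an actin oxidase, rose from 1.92, 8.13 and 1.15 to 112, 80.3 and 30.7 CPM (log2 difference 4.30 ± 0.66, adjusted p = 0.000688). Mmp13, a collagenase, rose from 2.59, 7.68 and 1.25 to 84.7, 84.3 and 31.4 CPM (log2 difference 4.11 ± 0.82, adjusted p = 0.00302), and Myo6, a myosin motor, from 2.25, 4.17 and 1.96 to 64.3, 44.4 and 14.6 CPM (log2 difference 3.87 ± 0.47, adjusted p = 0.00019). Blnk, an adaptor of the B cell receptor, rose from 0.471, 1.21 and 0.169 to 23.7, 10.96 and 6.403 CPM (log2 difference 4.44 ± 0.67, adjusted p = 0.000608). Ednrb, the endothelin receptor B, the endogenous retroviral gene Erv3, Ly6f and Fam213a rose by log2 3.96, 3.89, 3.76 and 3.76. Vdr in the HOXA9 line read 7.86, 5.44 and 3.99 CPM in DMSO and 9.18, 8.61 and 6.51 CPM with benzarone, with overlapping groups. Ly6f belongs to a family of near-identical genes, between which the counting could have split reads.

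By abundance, the leading rise was Csn2, beta-casein. It stood at 1650.5, 4868 and 1585 CPM in the DMSO libraries and 21342, 18765 and 18944 CPM with benzarone, 7.29-fold higher (log2 difference 2.87 ± 0.37, adjusted p = 0.000274), and reached 1.81 to 2.06% of all counts from 0.174 to 0.527%. DMSO replicate 2 was the highest control. The HOXA9 line already held 27503, 21238 and 23396 CPM in DMSO and 35625, 27731 and 26794 CPM with benzarone. The other leading rises were Hspa5, B2m, P4hb and Actb. Actb, beta-actin, went from 4761, 3719 and 3401 to 6308, 5633 and 5275 CPM (log2 difference 0.54 ± 0.14, adjusted p = 0.0126), and this call was lost without DMSO replicate 2 or 3 (adjusted p up to 0.0646). The leading falls by abundance were Elane, Eno1, Mpo, Gapdh and Gpi1, a pair of granule enzymes and 3 enzymes of glycolysis.

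**Figure D3:**
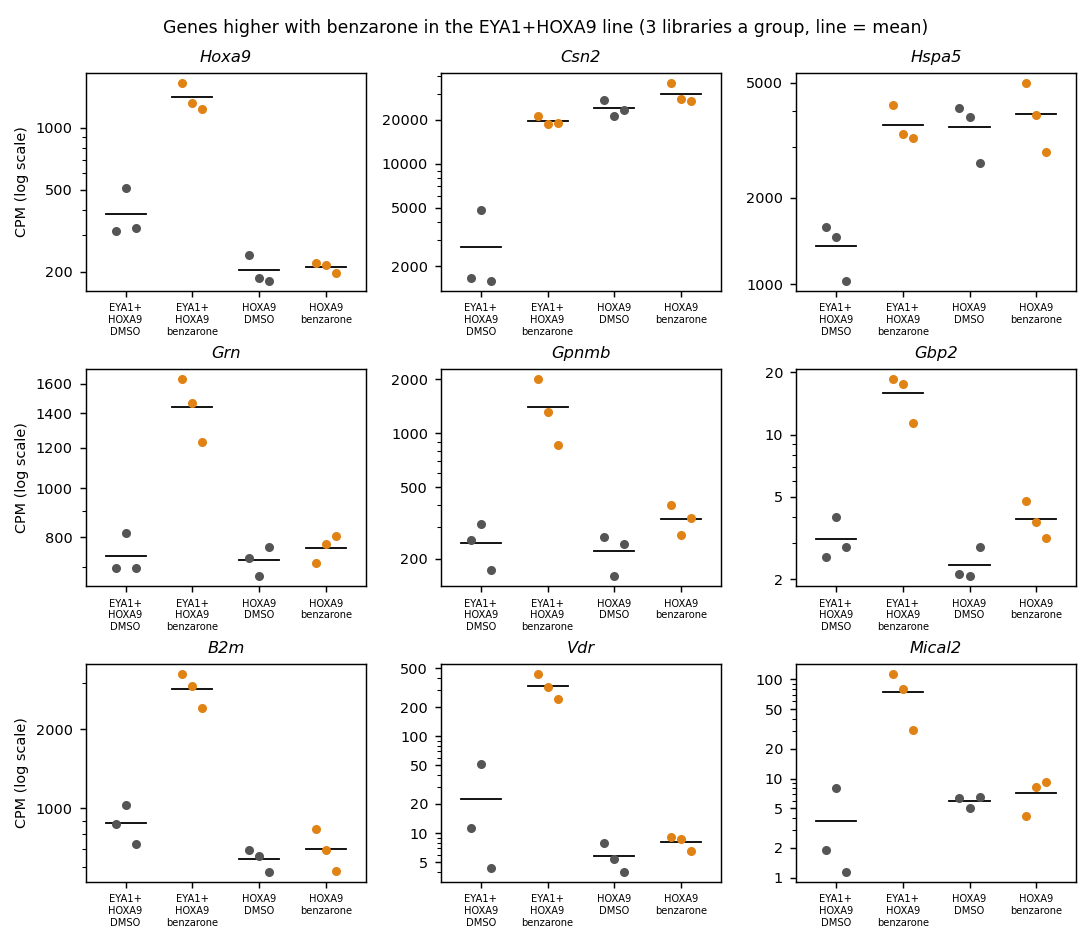
Each panel gives the CPM of 1 gene on a log axis in the 3 libraries of each of 4 groups (points), with the group mean as a line, for genes higher with benzarone in the EYA1+HOXA9 line. In every panel the treated EYA1+HOXA9 libraries lie above their controls, and for Csn2 and Hspa5 they come to lie near the level of the HOXA9 line, which was high in both treatments.

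The unfolded protein response is the program by which cells meet an overload of unfolded protein in the endoplasmic reticulum: ATF6, IRE1 and PERK sense it, and ATF6 and XBP1 raise chaperones and folding enzymes. All 20 listed genes passed the filter, of which 14 rose and none fell (17.0% of all tested genes rose), and the median was 0.95 against 0.094 in the HOXA9 line. Leaving out single libraries gave 12 to 16 higher, and 1 lower without DMSO replicate 1. Hspa5, the chaperone BiP, stood at 1585, 1458 and 1029 CPM in the DMSO libraries and 4198, 3324 and 3228 CPM with benzarone, 2.64-fold higher (log2 difference 1.40 ± 0.24, adjusted p = 0.00119). Dnajc3, a cochaperone of BiP, read 256, 224 and 172 CPM in the DMSO libraries and 603, 509 and 420.3 CPM with benzarone (log2 difference 1.23 ± 0.17, adjusted p = 0.000319). Pdia4, a disulfide isomerase, rose from 591, 522 and 367 to 1522, 1347 and 1133 CPM (log2 difference 1.44 ± 0.20, adjusted p = 0.000407), Creld2 from 60.7, 44.1 and 30.01 to 136, 115 and 116 CPM (log2 difference 1.44 ± 0.22, adjusted p = 0.000603) and P4hb, protein disulfide isomerase, from 2981, 2939 and 2548 to 4549.9, 4757 and 4675 CPM (log2 difference 0.72 ± 0.16, adjusted p = 0.00534). DMSO replicate 3 was the lowest control in each of these genes, and groups did not overlap. The HOXA9 line in DMSO held Hspa5 at 4096, 3821 and 2632 CPM, and 9 of the 20 genes changed more in the EYA1+HOXA9 line than in the HOXA9 line by the test of the difference.

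ATF6 and NF-Y are known to act through the endoplasmic reticulum stress response element, written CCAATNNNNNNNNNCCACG and searched on both strands from 250 bases before to 50 after each start site in the RefSeq promoters of GRCm38.p6. Of the listed genes 17 had a promoter in that table, and 8 of these held the element (47.1%), against 0.137% of 27025 genes. Of the 8 that held it 7 rose, with a median of 0.965, and of the other 9 listed genes 5 rose, with a median of 0.74. The element stands in capitals in stretches of 120 bases from the promoters of Hspa5 (chr2:34771974-34772093, plus strand), Creld2 (chr15:88819469-88819588, plus strand, element on the other strand) and Dnajc3 (chr14:118937776-118937895, plus strand). These were taken from the listed genes that hold the element and rose. Pdia4, with a log2 difference of 1.44, did not hold it and is not shown.
Hspa5: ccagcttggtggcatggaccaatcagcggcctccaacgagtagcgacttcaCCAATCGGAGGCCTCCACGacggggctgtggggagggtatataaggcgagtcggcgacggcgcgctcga
Creld2: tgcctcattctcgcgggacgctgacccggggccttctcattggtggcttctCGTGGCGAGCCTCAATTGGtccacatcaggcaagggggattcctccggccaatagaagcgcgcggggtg
Dnajc3: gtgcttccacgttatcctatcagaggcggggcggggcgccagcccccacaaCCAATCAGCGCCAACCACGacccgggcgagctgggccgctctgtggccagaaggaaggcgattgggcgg
The element began 65, 126 and 105 bases before the start site of Hspa5, Creld2 and Dnajc3. A match of letters is a description of the promoter and says nothing of which factor acted.

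**Figure D4:**
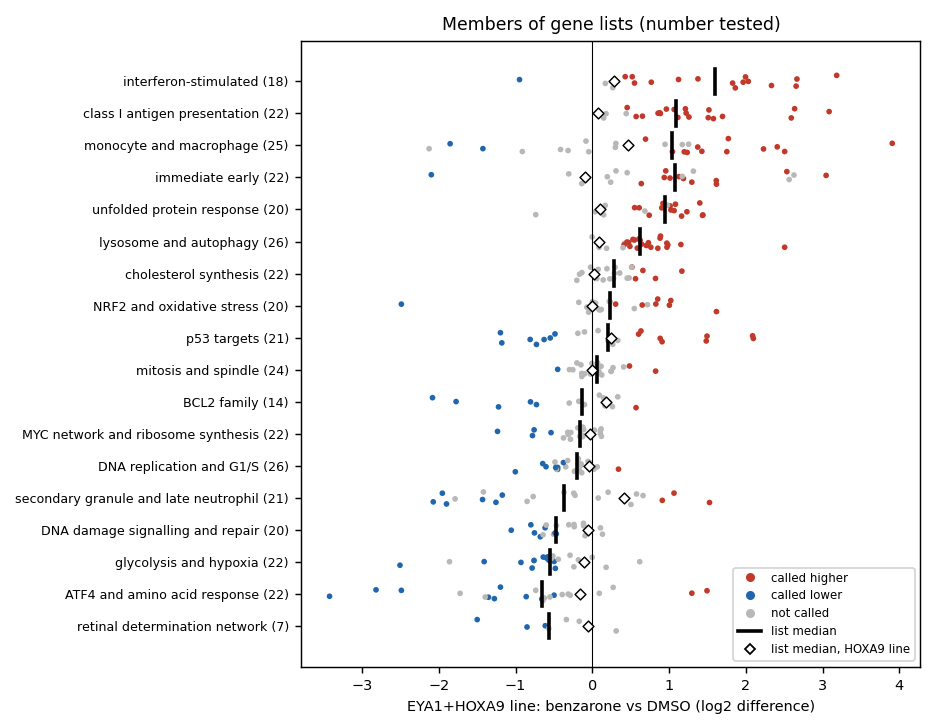
Each row is a gene list with its number of tested genes, and each point is 1 gene placed by its log2 difference between benzarone and DMSO in the EYA1+HOXA9 line. Not all lists are drawn, and the class I antigen presentation list was chosen after values were seen. Red points were called higher and blue points lower, the bar is the list's median and the open diamond is its median in the HOXA9 line. Medians of the lists shown run from 1.60 for interferon-stimulated genes down to -0.65 for the ATF4 list, while the diamonds stay between -0.16 and 0.47.

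Most lysosomal genes rose. Of 26 listed lysosome and autophagy genes, all tested, 21 were called higher and none lower, with a median of 0.61 against 0.081 in the HOXA9 line, and 17 to 22 were higher when single libraries were left out. Grn, progranulin, stood at 698, 816 and 697 CPM in the DMSO libraries and 1638, 1465 and 1231 CPM with benzarone (log2 difference 0.97 ± 0.13, adjusted p = 0.000297). Ctsl, cathepsin L, read 103, 103 and 83.6 CPM in the DMSO libraries and 168, 176 and 191 CPM with benzarone (log2 difference 0.88 ± 0.11, adjusted p = 0.000274). Gpnmb, given above, had the largest change of the list. The response differed from that of the HOXA9 line for 6 of the 26, all more positive in the EYA1+HOXA9 line.

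Most interferon-stimulated genes rose, with a median of 1.60 against 0.28 in the HOXA9 line. Of 22 listed genes 18 passed the filter, 15 rose and 1, Ifit2 (named after its values were seen), fell, and 12 to 15 rose when single libraries were left out. Levels were low. Gbp2, a guanylate-binding protein, went from 2.55, 3.99 and 2.87 to 18.7, 17.6 and 11.4 CPM (log2 difference 2.33 ± 0.26, adjusted p = 0.000126). Irf7, the factor that amplifies type I interferon, went from 2.82, 3.96 and 2.20 to 10.6, 13.03 and 9.12 CPM (log2 difference 1.86 ± 0.23, adjusted p = 0.000237) and Oas2, a sensor of double-stranded RNA, from 1.04, 1.89 and 1.35 to 4.997, 7.38 and 4.79 CPM (log2 difference 1.996 ± 0.28, adjusted p = 0.000393). The treated libraries of all 3 genes lay above their controls. Isg15, a ubiquitin-like protein, and Rsad2, or viperin, chosen after their values were seen because their promoters are printed, went from 0.706, 0.561 and 0.338 to 2.57, 2.42 and 1.61 CPM (log2 difference 2.03 ± 0.33, adjusted p = 0.000913) and from 1.65, 1.09 and 1.15 to 10.02, 11.3 and 3.36 CPM (log2 difference 2.67 ± 0.42, adjusted p = 0.000766).

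The core of the interferon-stimulated response element, GAAANNGAAA on either strand, stood in the promoters of 11 of 16 listed genes found in the table (68.8%), against 3.99% of 27025 genes. Of 10 tested genes with the core 8 rose, and of 4 without it 3 rose. The cores are in capitals in stretches of the promoters of Gbp2 (chr3:142620549-142620668, plus strand), Isg15 (chr4:156200826-156200945, minus strand, 3 overlapping cores) and Rsad2 (chr12:26456508-26456627, minus strand), shown as the members with a core and a clear change.
Gbp2: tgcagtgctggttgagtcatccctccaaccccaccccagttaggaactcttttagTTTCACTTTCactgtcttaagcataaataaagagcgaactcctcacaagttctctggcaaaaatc
Isg15: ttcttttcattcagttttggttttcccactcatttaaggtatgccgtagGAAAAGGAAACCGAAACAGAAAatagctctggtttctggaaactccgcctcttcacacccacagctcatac
Rsad2: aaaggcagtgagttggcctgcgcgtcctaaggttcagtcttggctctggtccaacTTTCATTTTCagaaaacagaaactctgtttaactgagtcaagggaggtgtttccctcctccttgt
In Gbp2 and Rsad2 the core lies on the strand opposite to the one printed.

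Among genes that ATF4 turns on when amino acids run short more were lower than higher. Of 24 listed genes 22 passed the filter, 9 were called lower and 2 higher, with a median of -0.65 against -0.16 in the HOXA9 line. This count depended on single libraries of both groups. DMSO replicate 1 lay near the benzarone libraries for many of these genes, and without it 16 of 22 were lower and 1 higher (median -0.90). Lower calls numbered 4 without DMSO replicate 2 and 3 without DMSO replicate 3 or benzarone replicate 1 or 2. Trib3, a pseudokinase induced by ATF4, showed the low DMSO replicate 1 most plainly. It stood at 4.40, 82.7 and 102 CPM in the DMSO libraries and 5.66, 3.86 and 8.12 CPM with benzarone (log2 difference -3.42 ± 0.79, adjusted p = 0.00687, and -3.98 without that library). Its groups overlapped through DMSO replicate 1. Slc7a11, the cystine transporter, read 11.96, 67.6 and 77.8 CPM in the DMSO libraries and 9.25, 7.25 and 11.6 CPM with benzarone (log2 difference -2.49 ± 0.56, adjusted p = 0.00567), and Mthfd2, a mitochondrial folate enzyme, 73.2, 188 and 221 CPM in the DMSO libraries and 64.6, 61.3 and 62.99 CPM with benzarone (log2 difference -1.35 ± 0.30, adjusted p = 0.00495). Trib3 in the HOXA9 line read 11.9, 13.6 and 25.4 CPM in DMSO and 8.01, 8.94 and 12.2 CPM with benzarone. Asns, asparagine synthetase, chosen after its values were seen, read 159, 349 and 394 CPM in the DMSO libraries and 147, 145 and 204 CPM with benzarone (log2 difference -0.86 ± 0.26, adjusted p = 0.0274). Its call was lost without DMSO replicate 2 or 3 or benzarone replicate 1 or 2 (adjusted p up to 0.136). The call of Asns was also lost with the 6 libraries of the line alone (adjusted p = 0.0628).

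The core of the ATF4 element, TGATGNAA on either strand, stood in the promoters of 9 of 22 listed genes found (40.9%), against 4.51% of 27025 genes. Of the 7 tested genes with the core 5 were lower and 1 higher, and of the 13 without it 4 were lower and 1 higher. It is in capitals in stretches of the promoters of Trib3 (chr2:152344011-152344130, minus strand), Slc7a11 (chr3:50443607-50443726, minus strand, a pair of cores in opposite directions) and Asns (chr6:7693169-7693288, minus strand). These are members with the core whose values are given, and Mthfd2, also given above, held no core.
Trib3: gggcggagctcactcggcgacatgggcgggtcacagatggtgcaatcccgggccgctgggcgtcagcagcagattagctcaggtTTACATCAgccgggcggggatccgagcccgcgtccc
Slc7a11: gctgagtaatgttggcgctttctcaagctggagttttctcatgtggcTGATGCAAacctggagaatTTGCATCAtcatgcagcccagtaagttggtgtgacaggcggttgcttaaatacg
Asns: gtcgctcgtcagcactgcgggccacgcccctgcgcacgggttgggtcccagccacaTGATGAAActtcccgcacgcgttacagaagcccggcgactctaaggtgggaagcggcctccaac
In Trib3 the core lies on the strand opposite to the one printed.

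Glycolytic enzymes were lower or not called. Of 22 listed glycolysis and hypoxia genes, all tested, 11 were called lower and none higher (median -0.55, and -0.10 in the HOXA9 line). Without DMSO replicate 2 or 3 or benzarone replicate 1 or 2 the count was 5. Eno1, enolase, stood at 2022, 2209.8 and 2282 CPM in the DMSO libraries and 1026, 1155 and 1599 CPM with benzarone (log2 difference -0.78 ± 0.16, adjusted p = 0.00327). Gpi1, glucose-6-phosphate isomerase, read 1697, 1609.7 and 1723 CPM in the DMSO libraries and 1024, 1126 and 1169.8 CPM with benzarone (log2 difference -0.60 ± 0.13, adjusted p = 0.00558), and Pgk1, phosphoglycerate kinase, fell from 432, 473 and 483 to 179, 208 and 342 CPM (log2 difference -0.93 ± 0.22, adjusted p = 0.00749). Gapdh, glyceraldehyde-3-phosphate dehydrogenase, fell from 2269, 2137 and 2279.9 to 1207, 1458 and 2069 CPM (log2 difference -0.50 ± 0.17, adjusted p = 0.0446). Its call was lost when any single DMSO replicate or benzarone replicate 1 or 2 was left out (adjusted p up to 0.145). The call of Gapdh was also lost with the 6 libraries of the line alone (adjusted p = 0.0761). In each of these genes benzarone replicate 3 was the treated library nearest to the controls. The nuclear genes of the respiratory chain moved little, with 2 of 22 higher and none lower (median 0.02). The coactivator of mitochondrial biogenesis Ppargc1a was 1 of these, from 0.0672, 1.57 and 0.101 to 4.97, 7.07 and 7.08 CPM (log2 difference 3.41 ± 0.74, adjusted p = 0.00472). Of 13 mitochondrially encoded genes 1 was lower and none higher. That call was lost without DMSO replicate 2 or 3 or any single benzarone replicate.

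Lipid, redox and drug-handling genes gave smaller counts. Cholesterol synthesis and uptake genes were higher for 5 of 22, a share near the 17.0% of all tested genes, and lower for none (median 0.28). That count was 10 without DMSO replicate 1, 2 without DMSO replicate 2 or 3 or benzarone replicate 3, and 3 without benzarone replicate 1 or by library totals alone. Insig1, which holds back the sterol sensor, rose from 153, 115 and 78.9 to 248, 262 and 268 CPM (log2 difference 1.17 ± 0.19, adjusted p = 0.00107). Of 22 tested PPAR target and fatty acid oxidation genes 3 were higher and 2 lower, or 5 higher with the 6 libraries of the line alone and 4 lower by library totals alone. Besides Pdk4 these included Cd36, a fatty acid transporter, which went from 0.773, 0.680 and 0.777 to 7.93, 7.41 and 1.68 CPM (log2 difference 2.93 ± 0.61, adjusted p = 0.00396). Fatty acid synthesis genes were higher for 2 of 15 and LXR target genes lower for 2 of 10. Over all tested genes 17.0% were higher and 12.4% lower. The median of the LXR list was -0.41 and turned to 0.021 without DMSO replicate 1, and 4 were lower by library totals alone. NRF2 and oxidative stress genes were higher for 7 of 20 and lower for 1, the cystine transporter Slc7a11. Osgin1, an NRF2 target, rose from 9.24, 10.8 and 7.37 to 37.6, 28.01 and 18.5 CPM (log2 difference 1.62 ± 0.25, adjusted p = 0.000735), Srxn1, sulfiredoxin, from 25.7, 23.8 and 16.5 to 48.1, 43.4 and 42.6 CPM (log2 difference 1.02 ± 0.17, adjusted p = 0.00119) and Fth1, ferritin heavy chain, from 609, 589.7 and 477 to 1266, 1077 and 1018 CPM (log2 difference 1.004 ± 0.18, adjusted p = 0.0015). Of 9 tested AHR and xenobiotic genes 3 were higher, among them the drug efflux pump Abcb1b, at 2.25, 3.96 and 2.67 CPM in the DMSO libraries and 7.33, 7.63 and 11.7 CPM with benzarone (log2 difference 1.58 ± 0.29, adjusted p = 0.00188). Its close relative Abcb1a was also called, and some reads may have been split between them. Of 9 listed urate transporters and benzarone-class drug targets 3 passed the filter and 1, the xanthine dehydrogenase gene Xdh, was called higher, a call that was lost without DMSO replicate 1 (adjusted p = 0.050006) or benzarone replicate 1 (adjusted p = 0.0754).

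Mitosis genes had few calls. Mki67, the proliferation antigen, read 438, 621 and 652 CPM in the DMSO libraries and 577, 593 and 426 CPM with benzarone, with overlapping groups (log2 difference -0.10 ± 0.21, adjusted p = 0.764). Of 24 mitosis genes 2 were higher and 1 lower (median 0.057). By library totals alone 4 were lower and the median was -0.097, and 4 were higher with DESeq2 or without DMSO replicate 1. The called genes include Kif23, a motor of cytokinesis, which rose from 38.2, 40.3 and 34.6 to 68.6, 65.8 and 66.00 CPM (log2 difference 0.82 ± 0.10, adjusted p = 0.000201), and Kif11, the motor of spindle poles, which went from 146, 149.7 and 154 to 114, 108 and 107 CPM (log2 difference -0.45 ± 0.091, adjusted p = 0.00314). DNA replication and G1/S genes were lower for 7 of 26 (12.4% of all tested genes were) and higher for 1 (median -0.20). The lower count was 11 by library totals alone, 4 without DMSO replicate 2 and 3 without DMSO replicate 3 or benzarone replicate 1 or 2. Ccne2, cyclin E2, fell from 43.7, 36.2 and 43.3 to 17.3, 18.4 and 25.7 CPM (log2 difference -1.004 ± 0.16, adjusted p = 0.000729) and Cdc45, a part of the replicative helicase, from 107, 125 and 131 to 74.2, 74.1 and 90.2 CPM (log2 difference -0.60 ± 0.11, adjusted p = 0.00213). Myc stood at 306, 402 and 448 CPM in the DMSO libraries and 125, 162 and 204 CPM with benzarone and was 2.36-fold lower (log2 difference -1.24 ± 0.21, adjusted p = 0.00113). In the HOXA9 line it read 249, 193 and 276 CPM in DMSO and 231, 191 and 263 CPM with benzarone, and the change differed between the lines (-1.17 ± 0.29, adjusted p = 0.0319). Of 22 genes of the MYC network and ribosome synthesis 4 were lower, a share near the 12.4% of all tested genes, and none higher. Lower calls numbered 2 without DMSO replicate 3 or benzarone replicate 1 or 2. Dkc1, dyskerin, went from 350.2, 291 and 320.1 to 147, 187 and 234 CPM (log2 difference -0.76 ± 0.16, adjusted p = 0.00458).

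DNA repair and p53 genes are of interest because EYA proteins dephosphorylate the histone variant H2AX at breaks. Of 20 listed damage signalling and repair genes 7 were lower and none higher (median -0.47). The count was 12 by library totals alone, 11 with DESeq2, 3 without DMSO replicate 2 or 3 and 2 without benzarone replicate 1. H2afx, which codes for H2AX, fell from 49.5, 73.9 and 77.9 to 40.1, 36.99 and 38.4 CPM (log2 difference -0.80 ± 0.14, adjusted p = 0.0015) and Exo1, an exonuclease of repair, from 49.1, 40.2 and 41.6 to 22.9, 25.7 and 28.98 CPM (log2 difference -0.75 ± 0.13, adjusted p = 0.00128). The RNA says nothing of the phosphorylated protein. The p53 targets were mixed, with 8 of 21 higher and 7 lower (median 0.20). Higher calls numbered 5 without DMSO replicate 3 or benzarone replicate 1. Lower calls numbered 0 without benzarone replicate 2, 2 without DMSO replicate 3, 3 without DMSO replicate 2 and 4 without benzarone replicate 1 or 3. Sesn1, a stress-induced brake on growth signalling, rose from 47.5, 32.8 and 22.98 to 125, 86.3 and 77.2 CPM (log2 difference 1.48 ± 0.24, adjusted p = 0.000835), Zmat3 from 7.70, 6.86 and 6.08 to 16.04, 11.8 and 10.9 CPM (log2 difference 0.91 ± 0.19, adjusted p = 0.00372) and Plk2 from 0.605, 0.591 and 0.541 to 2.81, 2.04 and 2.58 CPM (log2 difference 2.09 ± 0.25, adjusted p = 0.00019). Cdkn1a, the inhibitor p21, rose from 71.6, 62.9 and 59.1 to 116, 105 and 79.4 CPM (log2 difference 0.63 ± 0.16, adjusted p = 0.0128), a call that was lost without DMSO replicate 3 or benzarone replicate 1 (adjusted p up to 0.072) and by library totals alone (adjusted p = 0.0534).

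In the BCL2 family 5 of 14 tested genes were lower and 1 higher, and 3 were lower without DMSO replicate 3. Bcl2l1, which codes for the survival protein BCL-XL, fell from 31.2, 31.1 and 35.1 to 18.8, 18.7 and 18.2 CPM (log2 difference -0.81 ± 0.15, adjusted p = 0.00178). Bcl2a1a, another survival gene, read 56.1, 91.2 and 108 CPM in the DMSO libraries and 39.7, 41.5 and 28.4 CPM with benzarone (log2 difference -1.22 ± 0.22, adjusted p = 0.00179). Its copies Bcl2a1b and Bcl2a1d were also called lower (Bcl2a1b not without DMSO replicate 3, adjusted p = 0.065), but the 3 are near-identical, so their counts are uncertain one by one.

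Immediate early genes, which answer growth factor and stress signals within minutes, were higher for 11 of 22 and lower for 1, with a median of 1.07 against -0.10 in the HOXA9 line. The count was 7 without DMSO replicate 1 or DMSO replicate 3, and 3 were lower by library totals alone. Klf6, a zinc finger factor, rose from 66.3, 84.96 and 70.3 to 162, 131 and 137 CPM (log2 difference 0.96 ± 0.15, adjusted p = 0.000696), and the MAP kinase phosphatase genes Dusp5 and Dusp6 rose from 9.68, 10.6 and 8.48 to 22.3, 23.1 and 17.5 CPM (log2 difference 1.13 ± 0.16, adjusted p = 0.000375) and from 88.2, 95.1 and 90.1 to 175, 224 and 124 CPM (log2 difference 0.94 ± 0.17, adjusted p = 0.00187). Adhesion and homing genes were higher for 6 of 19 and lower for 2. Vcam1, the ligand of the integrin VLA-4, stood at 19.7, 176 and 31.6 CPM in the DMSO libraries and 717, 879.8 and 784 CPM with benzarone (log2 difference 3.39 ± 0.62, adjusted p = 0.00189). Here DMSO replicate 2 was several times the other controls and still below the treated libraries. Itgam, the CD11b integrin chain of myeloid cells, rose from 334, 398 and 379 to 985, 822 and 515 CPM (log2 difference 1.06 ± 0.19, adjusted p = 0.00182), and Cxcr4, the receptor that holds progenitors in the marrow, fell from 234, 250.2 and 279 to 141, 122 and 157 CPM (log2 difference -0.86 ± 0.18, adjusted p = 0.00419). Of 11 tested chemokine and cytokine genes 2 were higher and 1 lower, near the shares of all tested genes (17.0% and 12.4%). Tnf fell from 5.61, 5.41 and 6.62 to 2.09, 1.98 and 2.15 CPM (log2 difference -1.50 ± 0.25, adjusted p = 0.00107). Heat shock genes were higher for 3 of 12 and lower for 1, or higher for 5 without DMSO replicate 1 and for 1 without DMSO replicate 3, and lower for 3 by library totals alone. Bag3, a cochaperone, rose from 32.7, 31.97 and 24.3 to 67.3, 58.1 and 61.5 CPM (log2 difference 1.07 ± 0.14, adjusted p = 0.000246).

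The genes whose response differed most surely between the lines fell in the EYA1+HOXA9 line and were not called in the HOXA9 line. Cldn15, a tight junction claudin, stood at 76.1, 57.03 and 68.1 CPM in the DMSO libraries and 11.8, 11.7 and 12.8 CPM with benzarone (log2 difference -2.47 ± 0.13, adjusted p = 2.4e-06), and in the HOXA9 line at 78.6, 80.8 and 93.2 CPM in DMSO and 91.2, 75.9 and 90.2 CPM with benzarone. The difference of the log2 changes was -2.50 ± 0.18, adjusted p = 9.94e-05. Dgat2, which makes triglycerides, read 36.8, 49.3 and 60.5 CPM in the DMSO libraries and 4.16, 4.11 and 5.29 CPM with benzarone (log2 difference -3.44 ± 0.22, adjusted p = 6.67e-06) against 28.3, 26.7 and 37.7 CPM in DMSO and 26.6, 22.6 and 32.1 CPM with benzarone in the HOXA9 line (-3.25 ± 0.30, adjusted p = 0.000296). In DMSO Cldn15 was lower in the EYA1+HOXA9 line than in the HOXA9 line, without overlap, and Dgat2 was mostly higher, with overlap. The difference between the lines in DMSO was not tested. With benzarone both genes lay far below the HOXA9 line. Schip1, a cytoskeletal adaptor, fell from 13.2, 10.4 and 14.4 to 0.928, 0.942 and 1.002 CPM and read 5.71, 7.99 and 8.76 CPM in DMSO and 5.52, 4.90 and 6.31 CPM with benzarone in the HOXA9 line (-3.30 ± 0.29, adjusted p = 0.000296). Plscr3, a phospholipid scramblase of mitochondria, fell from 113, 111 and 129 to 42.7, 40.9 and 40.2 CPM, with 9.93, 10.97 and 10.9 CPM in HOXA9 cells in DMSO (-1.66 ± 0.15, adjusted p = 0.000296). Itga1, the alpha-1 integrin chain, fell from 39.5, 47.3 and 60.1 to 10.1, 7.41 and 7.08 CPM, with 6.37, 6.16 and 7.43 CPM in HOXA9 cells in DMSO (-2.84 ± 0.26, adjusted p = 0.00032). For Plscr3 and Itga1 the EYA1+HOXA9 line began well above the HOXA9 line, so the pattern of levels differs from that of Cldn15 and Dgat2. Elane, given above, completes these 6 (-2.22 ± 0.17, adjusted p = 0.000127).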

How the data were processed

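The labels' protocols describe stranded libraries of poly(A) RNA, 12 in number, from 2 lines. The authors deposited 1 table of estimated counts per gene, not normalized. The submitters' processing notes name Salmon 0.13.0 and the build GRCm38, without their roles. Each of the 12 value columns was matched to a sample by its name. Values were rounded to whole counts and analysed in R 4.3.3 with edgeR 4.0.16: filterByExpr kept 13375 of 35429 genes, libraries were scaled by TMM, and the 4 groups entered 1 quasi-likelihood fit (F test, 8 residual degrees of freedom, two-sided, Benjamini-Hochberg adjustment, threshold 0.05). Pooling the HOXA9 groups lets all 12 libraries share 1 estimate of the spread. CPM values are scaled by the TMM factors, and SE is that of the log2 difference. DESeq2 1.42.0 and other settings were alternatives, and the script was tested on simulated data.

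Ensembl IDs took their symbols from the given name table (35177 of 35429 matched), and where IDs shared a symbol the one with most counts was used. Promoters are those of RefSeq on GRCm38.p6. The gene lists, 39 in number, and the rule for named genes were chosen with earlier results of these data known, and 2 further lists after values were seen. The rule takes a fixed set (such as Eya1, Six4, Hoxa9, Kit and Myc), the 10 largest rises and falls without overlap at 10 CPM, the 5 largest of each by CPM, up to 3 called genes of each list and the 6 smallest interaction p. Other genes named were chosen after their values were seen, and some genes that the rule takes are not reported here. In the HOXA9 line same-numbered libraries deviated together (r = 0.279, 0.300 and 0.550), so the numbers were taken as pairs there, from the data and not from the labels. No pair of libraries of a group agreed within sampling noise (smallest chi-square per gene 14.5). Library totals of 26340517 to 34606046 counts set the precision: a group without counts is under 0.0322 to 0.0382 CPM (3 counts), counting error only.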

Additional observations from a re-analysis of the deposited data

Results flagged for a closer look

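The test of the difference between the lines called 1009 genes, and these are the named genes among them that had at least 3 counts in each group. Each value is the log2 change with benzarone in the EYA1+HOXA9 line minus that in the HOXA9 line, and all passed at an adjusted p under 0.05. A value above 0 means a more positive change in the EYA1+HOXA9 line.

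Myeloid genes stood on both sides of 0. Among granulocyte genes Elane (-2.22 ± 0.17, adjusted p = 0.000127), Mpo (-2.50), Cebpe (-3.03), Serpinb1a (-0.74), Wfdc21 (-2.005), Padi4 (-2.10) and Cxcr2 (-2.17) were more negative, and Il3ra (1.53) more positive. The macrophage genes Gpnmb (1.92), Ccr2 (1.67) and Adgre1 (2.03) were more positive, as were Thy1 (2.71), Ighm (2.95) and Cyp11a1 (1.30). Hoxa9 (1.81) and Pbx3 (0.87) were more positive and Hlf (-4.07) more negative. Siglecf (-1.86), at low levels, was more negative too. Within the EYA1+HOXA9 line it was called lower (log2 difference -1.75 ± 0.34, adjusted p = 0.0027).

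In the endoplasmic reticulum and lysosome Hspa5 (1.25), Dnajc3 (1.03), Pdia4 (1.26), Creld2 (1.31), Grn (0.89) and Ctsl (0.80) were more positive. So were the interferon and class I genes Gbp2 (1.60), Irf7 (1.42), Oas2 (1.59), Isg15 (1.79), B2m (1.57), H2-D1 (1.48), Tap1 (1.15) and Tapbp (1.09), while the interferon-induced gene Ifit2 (-1.09) was more negative. More positive too were the stress, sterol and signalling genes Bag3 (0.98), Fth1 (0.97), Srxn1 (0.97), Insig1 (1.13), Sesn1 (1.39), Plk2 (1.69), Dusp5 (0.86), Klf6 (0.92) and Vcam1 (3.66), and Tnf (-1.32) was more negative. Csn2 (2.54), Socs2 (1.88) and Igf1 (2.29) were more positive.

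Of the cell division and survival genes Myc (-1.17), Ccne2 (-0.95), Exo1 (-0.72), Kif11 (-0.46), Bcl2l1 (-0.95), Bcl2a1a (-1.46) and its copies Bcl2a1b (-2.76) and Bcl2a1d (-3.29) were more negative and Kif23 (0.79) more positive. Among the genes of largest change Mical2 (4.03), Fam213a (3.92), Vdr (3.40) and Myo6 (3.05) were more positive. Zfyve9 (-5.25), Nebl (-4.999), Kcnq5 (-4.17), Slc32a1 (-4.10), Schip1 (-3.30), Dgat2 (-3.25), Clstn3 (-2.87), Itga1 (-2.84), Cldn15 (-2.50) and Plscr3 (-1.66) were more negative. Zfyve9, Nebl, Clstn3 and Slc32a1 were low in the HOXA9 line, with a mean of at most 0.865 CPM in either of its groups (Slc32a1 in DMSO).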

How the results depend on the processing

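The 3 comparisons were refitted with RLE size factors, library totals alone, no filter on low counts, a replicate block, DESeq2 and each library left out in turn, and the 2 comparisons within a line also with the libraries of that line alone. The EYA1+HOXA9 count stayed within 1.5 times of 3933 in all of these but one. With single libraries left out it ran from 2353 to 3922, with 1459 to 2228 higher and 894 to 1694 lower, and by library totals alone 2674 genes were lower. The HOXA9 count of 0 became 1 with the 6 libraries of that line alone and 14 with DESeq2, and 0 to 1 with single libraries left out. The interaction count was 1715 with DESeq2 and ran from 408 to 1182 with single libraries left out. With the replicate block the counts were 4640 for EYA1+HOXA9, 11 for HOXA9 and 1687 for the interaction. In the EYA1+HOXA9 line same-numbered libraries did not deviate together (r between -0.0653 and 0.00819), so there the numbers name libraries and pair nothing. Mki67, not called in any setting, had its log2 difference of -0.10 turn to 0.0046 and 0.038 without DMSO replicate 3 and benzarone replicate 3, and ran from -0.26 to 0.038 with single libraries left out. The causes were not tested. Simulated 1.5-fold changes were called for 2.5% of 200 changed genes, 2-fold changes for 59.5% and 4-fold changes for 92.5%. Genes left unchanged made up 0%, 7.75% and 4.64% of the calls in these simulations. Only 200 of 12940 to 12970 genes were changed there, whereas 29.4% of genes were called in the data. Of the 3933 called genes 1632 were higher and 1182 lower by at least 1.5-fold, and the others changed by less. The share of small changes missed at this depth and number of libraries was not tested.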

Other observations

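A pair of gene groups not described above was chosen after values were seen, so their counts are descriptions and support nothing. The first is MHC class I antigen presentation, by which cells show peptides of their own proteins to CD8 T cells. Of 22 genes, all tested, 19 were called higher with benzarone in the EYA1+HOXA9 line and none lower, with a median of 1.09 against 0.07 in the HOXA9 line, and 18 or 19 were higher when single libraries were left out. B2m, the light chain of class I, stood at 874, 1035 and 731 CPM in the DMSO libraries and 3239, 2911 and 2403 CPM with benzarone, 3.24-fold higher (log2 difference 1.70 ± 0.18, adjusted p = 9.58e-05). H2-D1, a class I heavy chain, read 806, 896 and 662 CPM in the DMSO libraries and 2539, 2311 and 1927 CPM with benzarone (log2 difference 1.52 ± 0.17, adjusted p = 0.000126). Tap1, which pumps peptides into the endoplasmic reticulum, rose from 71.8, 96.4 and 76.4 to 215, 189 and 180.5 CPM (log2 difference 1.26 ± 0.17, adjusted p = 0.000316), and Tapbp, tapasin, which loads them, from 159.7, 159 and 124 to 379.8, 346 and 308 CPM (log2 difference 1.22 ± 0.12, adjusted p = 7.7e-05). Groups overlapped in none of these 4 genes. The HOXA9 line held B2m at 697, 661 and 574 CPM in DMSO and 836, 695 and 579.7 CPM with benzarone. The class I heavy chain genes are near-identical in sequence, so their counts are uncertain one by one, which does not touch B2m, Tap1 and Tapbp.

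The second group is the caseins and other known targets of STAT5, the factor that cytokine receptors such as those for interleukin 3 activate. Of 17 genes 15 passed the filter, 7 were higher and 1, Bcl2l1, lower (median 0.95). Besides Csn2, the casein gene Csn1s2a rose from 17.2, 85.4 and 11.8 to 409, 369 and 404 CPM (log2 difference 3.37 ± 0.62, adjusted p = 0.00199). Socs2, a feedback inhibitor of cytokine signalling, stood at 47.1, 66.2 and 39.03 CPM in the DMSO libraries and 289, 188 and 167 CPM with benzarone (log2 difference 2.08 ± 0.23, adjusted p = 0.000115), and Cish, another, at 121, 136 and 114 CPM in the DMSO libraries and 296, 222 and 198 CPM with benzarone (log2 difference 0.95 ± 0.17, adjusted p = 0.00163). Igf1, insulin-like growth factor 1, rose from 61.7, 125 and 45.4 to 804, 645 and 462 CPM (log2 difference 3.04 ± 0.38, adjusted p = 0.000217). DMSO replicate 2 was the highest control in all of these but the treated libraries lay above it. For comparison, HOXA9 libraries had Socs2 at 21.8, 21.97 and 18.9 CPM in DMSO and 27.2, 24.03 and 20.7 CPM with benzarone and Igf1 34.4, 22.2 and 38.4 CPM in DMSO and 64.02, 36.7 and 59.6 CPM with benzarone, both with overlapping groups.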
